A study of Mus musculus with 6 samples.

Results

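Short interspersed elements (SINEs) of the mouse genome were followed at the level of their RNA in 2-cell embryos that had received mRNA for a wild-type or a mutant form of Suv39h1. All entries of the deposited repeat table whose names begin as B1 or PB1, B2, B3, B4, ID, MIR or RSINE were taken, which gave 32 families of 1183. They comprised 14 B1, 3 B2, 2 B3, 2 B4, 5 ID and 5 MIR families and 1 RSINE family. The choice rests on names and not on measured values.

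Zygotes were microinjected 18 h after hCG with 0.6 µg/µl of Suv39h1wt or of Suv39h1mut mRNA and were kept in KSOM medium. Each of these groups had 2 libraries, and non-injected embryos, also with 2, were used here for genes only, since the repeat table was used for the 4 injected libraries. SUV39H1 is a histone methyltransferase of lysine residues of histone H3 in heterochromatin; the labels give neither the mutation, the mouse strain, the number of embryos per library nor whether libraries came from separate collections, so a p-value here covers the spread among the libraries as sequenced, which may be technical. The Suv39h1 transcript (ENSMUSG00000039231) was at 51.2 and 38.0 CPM in Suv39h1wt embryos, 28.0 and 41.6 CPM in Suv39h1mut embryos and 41.3 and 35.03 CPM in the non-injected libraries. These groups overlapped, and the counts therefore do not check the labels.

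SINEs are short, non-coding retrotransposons that RNA polymerase III can transcribe from a promoter inside the element, with box A and box B as its parts, and that spread with the help of LINE-1 proteins. B1 elements descend from 7SL RNA, the RNA of the signal recognition particle, while B2, B3, ID and MIR elements descend from tRNAs. B4 and RSINE1 elements join an ID-like part to a B1-like part, and MIR elements are shared by mammals and are old. Copies also lie in introns and untranslated regions of genes, and the deposited counts, which sum over all copies of a family, do not tell RNA polymerase III transcripts from copies read within longer RNAs.

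The source gene of the ID group is shown to make the elements concrete, with the letters of its GENCODE M21 transcript (GRCm38; the counts were made on mm9). BC1 RNA, from which the ID families of rodents derive, lies on chr7:144914470-144914637 on the plus strand and has 168 bases. Capitals mark the letters that match box A (searched as GCNNAGTGG) and box B (searched as GGTTCNNNC), both on the transcribed strand and without overlap, at bases 16 to 24 and 57 to 65. Within the first 168 bases of the 135207 transcripts of at least that length, box A was found on either strand in 3.01%, box B in 7.48% and both in 0.245%. A match is a description of letters and not of use, and consensus sequences of the SINE families themselves are not used here.
Bc1: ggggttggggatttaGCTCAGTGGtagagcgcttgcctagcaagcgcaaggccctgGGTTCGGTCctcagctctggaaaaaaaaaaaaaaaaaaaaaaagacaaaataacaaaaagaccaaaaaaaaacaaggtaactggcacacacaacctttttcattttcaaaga

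SINE families made up a large part of the repeat counts. Of all repeat counts they took 25.9% and 22.03% with Suv39h1wt mRNA and 27.0% and 22.7% with Suv39h1mut mRNA. The libraries numbered 1 were thus higher than those numbered 2 in both groups, and the groups overlapped. The 2 ribosomal RNA entries of the table, LSU-rRNA_Hsa and SSU-rRNA_Hsa, were ordered the other way, with 7.33% and 27.9% in Suv39h1wt and 6.14% and 24.0% in Suv39h1mut. With these entries set aside, SINEs took 27.9% and 30.6% in Suv39h1wt against 28.7% and 29.9% in Suv39h1mut. The order of the libraries in this summed share was then turned around, and the Suv39h1mut values lay between the Suv39h1wt values. Most single families did not follow it. Over library totals without these entries, number 2 was below number 1 in both groups in 20 of 32 families, beside 52.8% of all families. It was above in both in 6, beside 14.9%.

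The depth behind these shares was 5141656 to 7686560 SINE counts of 23342681 to 28572256 repeat counts per library, beside 43116784 to 48572265 gene counts in the injected libraries. The lowest count of any member in a library was 8172, for MIRm in Suv39h1wt replicate 2, so counting error was small beside the spread between libraries. Of the marker lists, 2-cell embryo genes (10 of 16 found in the gene table) summed to 861.0 to 971.2 CPM in Suv39h1wt, 524.8 to 647.2 in Suv39h1mut and 325.2 to 350.6 in non-injected embryos. Oocyte genes (11 of 11) summed to 2029 to 4136 CPM over the 6 libraries. Cumulus and granulosa genes (13 of 14) summed to 14.7 to 15.1, 8.31 to 17.2 and 9.06 to 11.02 CPM, and sperm (4 of 7) and blood (4 of 6) genes to at most 1.91 and 7.35 CPM, and 0 of the markers found were at 0 in every library. The part of these RNAs in the SINE values was not tested.

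No SINE family passed the test between Suv39h1wt and Suv39h1mut embryos. In edgeR's quasi-likelihood test 0 of 32 members had a Benjamini-Hochberg adjusted p under 0.05, beside 0 of 1082 families tested (0%). At an unadjusted p under 0.05 the count was also 0 of 32, beside 27 of all families (2.5%). DESeq2 held 0 of 32 past an adjusted p of 0.05, beside 1 of 1173 families. In the authors' deposited table it was 0 of 32, beside 19 of the 710 families with an adjusted p. All 32 members passed the low-count filter, with adjusted p from 0.993 to 0.998 in edgeR. Their standard errors were small for this table, with a median of 0.22 on the log2 scale against 0.55 over all families. The standard error was below that median in 30 of 32 members. With 2 libraries a group each family has 2 residual degrees of freedom, to which the edgeR fit adds a spread shared among families. A standard error or p-value of this fit is therefore not a measure of that family's own libraries alone.

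The sign of nearly every SINE difference depended on how the libraries were scaled. With TMM scaling of the repeat table, used for all CPM values here, 29 of 32 members had a positive log2 fold change, beside 53.7% of all families, and the median was 0.11 for SINEs and 0.04 for all families. This count rested on single libraries, since it was 14 of 32 without Suv39h1mut replicate 1 and 14 of 32 without Suv39h1wt replicate 2, against 28 without Suv39h1mut replicate 2 and 24 without Suv39h1wt replicate 1. With library totals only, 6 of 32 were positive, beside 32.9% of all families, and the medians were -0.14 and -0.20. The log2 fold changes of the authors' deposited table were negative for 30 of 32 members, beside 73.9% of all 1183 families, with medians of -0.26 and -0.18. The median of SINEs less that of all families was between 0.05 and 0.08 under all 7 scalings fitted in edgeR to the 4 libraries. Its sign turned with the libraries used: it was -0.08 without Suv39h1mut replicate 1 and -0.02 without Suv39h1wt replicate 2, but 0.09 without Suv39h1mut replicate 2 and 0.22 without Suv39h1wt replicate 1. Taken relative to the median of all families under TMM, 21 of 32 members were above 0, and PB1D10, PB1D9, B1F, B1F2, B1_Mur2, ID_B1, ID4 and MIR, which were positive as fitted, were below it, between -0.0059 and -0.04. The relative group medians were 0.08 for B1, 0.36 for B2, 0.05 for B3, 0.04 for B4, -0.03 for ID, 0.04 for MIR and 0.11 for RSINE. With all 4 libraries, 5 members kept their sign under the 7 scalings: B2_Mm1a and B2_Mm1t stayed positive, and ID, PB1 and MIRb stayed negative.

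**Figure D1:**
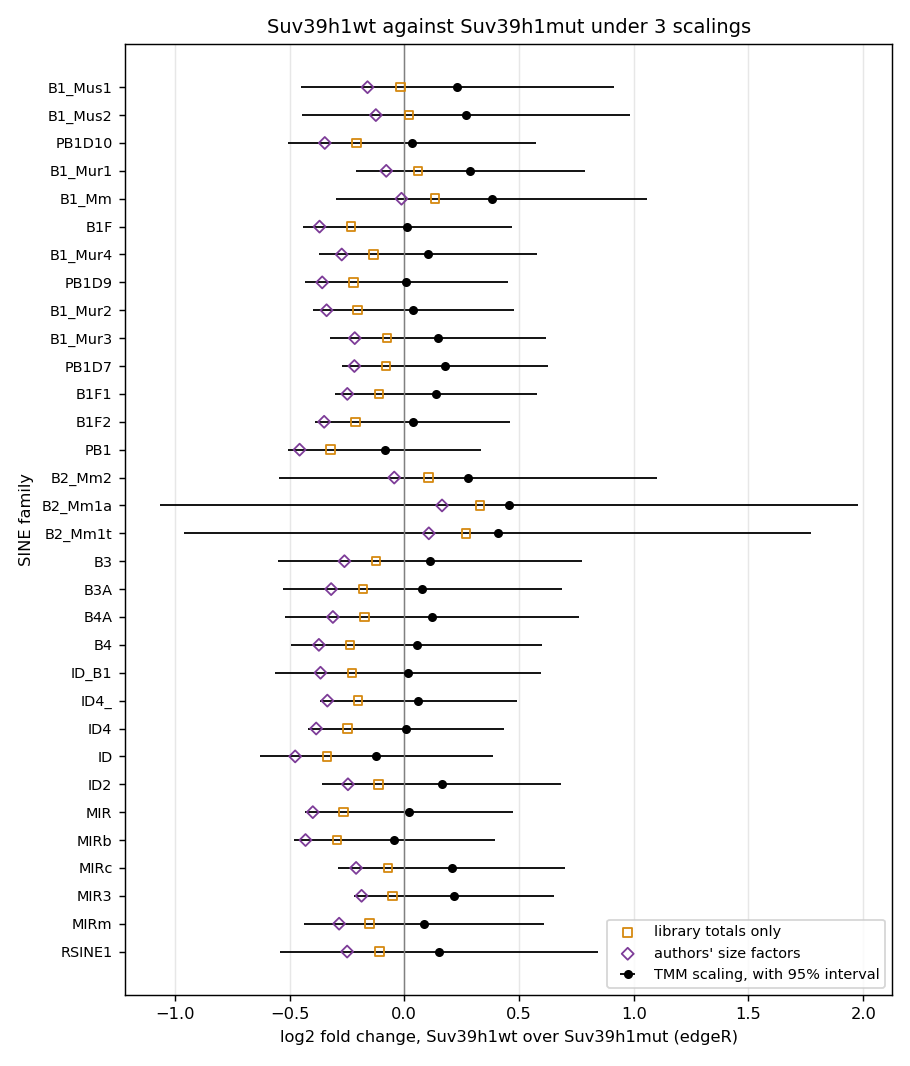
The log2 fold change of Suv39h1wt over Suv39h1mut (x axis) is plotted for each of the 32 SINE families (y axis). Black points with lines are TMM values with their 95% intervals, all of which include 0, and open squares and diamonds are edgeR values with library totals only and with the authors' size factors, which lie to the left of the TMM value for each family.

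Under TMM, B2 elements had the largest difference between group means of the 7 groups, and also the widest spread. Their summed counts came to 49619 and 83247 CPM with Suv39h1wt mRNA and 26317 and 75928 CPM with Suv39h1mut mRNA. Suv39h1mut replicate 1 stood far below the other 3 libraries, and the groups overlapped. The means were 66433 ± 23779 CPM and 51123 ± 35080 CPM (SD, n = 2), a log2 ratio of 0.38, with p = 0.667 in an exact two-sided permutation test, for which 0.333 is the smallest p that 2 against 2 libraries can give. Without Suv39h1mut replicate 1 the log2 ratio was -0.22, without Suv39h1wt replicate 2 it was -0.04, without Suv39h1wt replicate 1 it was 0.65 and without Suv39h1mut replicate 2 it was 1.34. With no library left out, it was 0.23 with library totals only. With the authors' size factors it was 0.07, the smallest in size of the 7 groups.

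Of the single B2 families, B2_Mm1a was at 16160 and 32629 CPM in Suv39h1wt and 6828 and 28754 CPM in Suv39h1mut, a log2 fold change of 0.46 ± 0.65 (SE) with a 95% interval from -1.06 to 1.98. B2_Mm1t followed it with 13030 and 24529 CPM against 6241 and 22086 CPM (0.41 ± 0.58). B2_Mm2 varied less, with 20429 and 26088 CPM against 13249 and 25087 CPM (0.28 ± 0.36, and -0.04 with the authors' size factors). In all 3 families both libraries numbered 2 were above both numbered 1 under TMM. Within the B2 counts, a make-up that does not depend on scaling, B2_Mm1a took 32.6% and 39.2% in Suv39h1wt and 25.9% and 37.9% in Suv39h1mut, and B2_Mm2 took 41.2% and 31.3% against 50.3% and 33.0%.

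B3 elements, older relatives of B2, were much steadier. Their sum was 39169 and 42532 CPM in Suv39h1wt and 36594 and 39621 CPM in Suv39h1mut, a log2 ratio of 0.10 (p = 0.667, exact permutation test) that was -0.14 with library totals only. B3, the most read SINE family in the libraries numbered 1, where B2_Mm1a was the most read in those numbered 2, had 26515 and 26676 CPM against 23911 and 25303 CPM (log2 fold change 0.11 ± 0.29), and B3A had 12654 and 15856 CPM against 12683 and 14317 CPM (0.08 ± 0.27). Both values turned negative with library totals only, at -0.12 and -0.18. The ratio of B2 to B3 counts, again free of scaling, was 1.27 and 1.96 in Suv39h1wt and 0.719 and 1.92 in Suv39h1mut. It was lowest in Suv39h1mut replicate 1, and in both groups number 2 was above number 1.

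**Figure D2:**
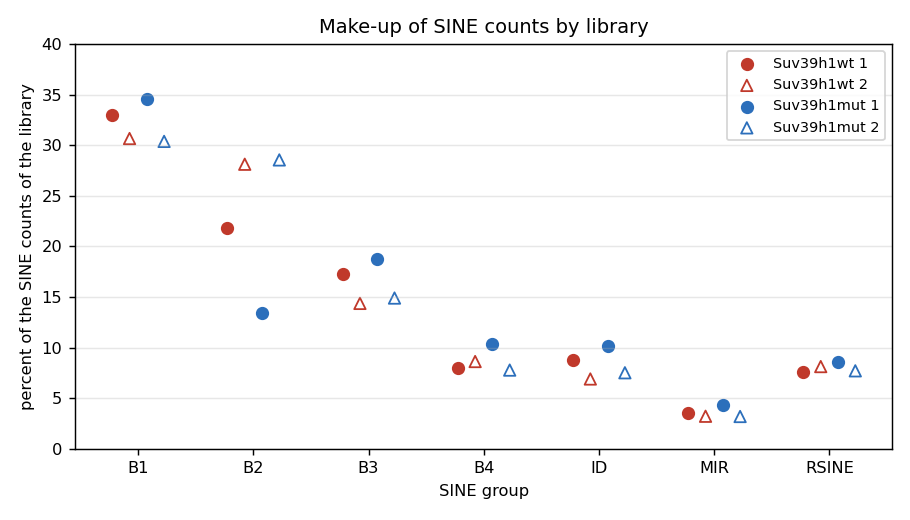
The share of a library's SINE counts (y axis, percent) is plotted for the 7 SINE groups (x axis), with 1 point per library, red for Suv39h1wt and blue for Suv39h1mut, filled circles for number 1 and open triangles for number 2. B2 runs from 13.5% in Suv39h1mut replicate 1 to 28.5% in Suv39h1mut replicate 2, with the Suv39h1wt libraries at 21.9% and 28.1%, and the groups overlap in every SINE group.

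B1 elements took the largest share of SINE counts, 33.0% and 30.7% in Suv39h1wt and 34.5% and 30.4% in Suv39h1mut. Their sum was 74803 and 90771 CPM against 67553 and 80796 CPM, a log2 ratio of 0.16 (p = 0.667, exact permutation test) that was -0.09 with library totals only. Of the 14 families 13 had a positive log2 fold change under TMM, from -0.09 for PB1 to 0.38 for B1_Mm, with a median of 0.12.

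The 3 most read B1 families were B1_Mus1, B1_Mus2 and PB1D10. B1_Mus1 was at 10862 and 16008 CPM in Suv39h1wt and 9613 and 13270 CPM in Suv39h1mut (log2 fold change 0.23 ± 0.30), and B1_Mus2 at 8645 and 13773 CPM against 7459 and 11158 CPM (0.27 ± 0.32). PB1D10, of the proto-B1 elements that preceded B1, was at 8802 and 9970 CPM against 8571 and 9769 CPM (0.03 ± 0.24). In all 3 the groups overlapped, and with the authors' size factors the values were -0.16, -0.12 and -0.35. B1_Mur1 had the smallest p among B1 families above 0, with 8323 and 8187 CPM in Suv39h1wt and 6502 and 7023 CPM in Suv39h1mut (0.29 ± 0.22, 95% interval -0.21 to 0.79, adjusted p = 0.993 in edgeR). Its groups did not overlap under TMM, and with the authors' size factors its value was -0.08. PB1, the one B1 family below 0 under TMM, had 1952 and 1832 CPM against 2009 and 2005 CPM (-0.09 ± 0.19).

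The B1 families can be ordered by name from the proto-B1 elements to those named for the genus and species, an order that was set beside the values after they were seen. Under TMM the median log2 fold change was 0.02 for the 4 PB1 families, 0.04 for the 3 B1F families, 0.12 for the 4 B1_Mur families and 0.25 for the 2 B1_Mus families, and it was 0.38 for B1_Mm. Without Suv39h1wt replicate 2 the B1_Mus median was -0.09 and B1_Mm was at -0.02, and without Suv39h1mut replicate 1 they were at -0.01 and 0.08, so that this order did not hold in either case. Without Suv39h1mut replicate 2 the PB1 median of 0.09 was above the B1F median of 0.07. Of these fits only the one without Suv39h1wt replicate 1 kept the order. For the log2 ratio of number 2 to number 1 this order did not hold throughout, with medians of 0.06 and 0.07 for PB1, 0.10 and 0.06 for B1F, 0.06 and 0.17 for B1_Mur and 0.62 and 0.52 for B1_Mus in Suv39h1wt and Suv39h1mut. B1_Mm took 6.09% and 8.22% of B1 counts in Suv39h1wt and 5.40% and 6.90% in Suv39h1mut, while the PB1 families took 25.2% and 22.3% against 26.9% and 24.5%. The ratio of B1_Mm to PB1 counts was 2.33 and 4.07 against 1.82 and 2.78. In each of these measures the libraries numbered 2 differed from those numbered 1 in the same direction in both groups, and the groups overlapped. Reads of such similar families can be assigned to one or another member, and how the deposited counts treated them is not given in the sources used here.

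**Figure D3:**
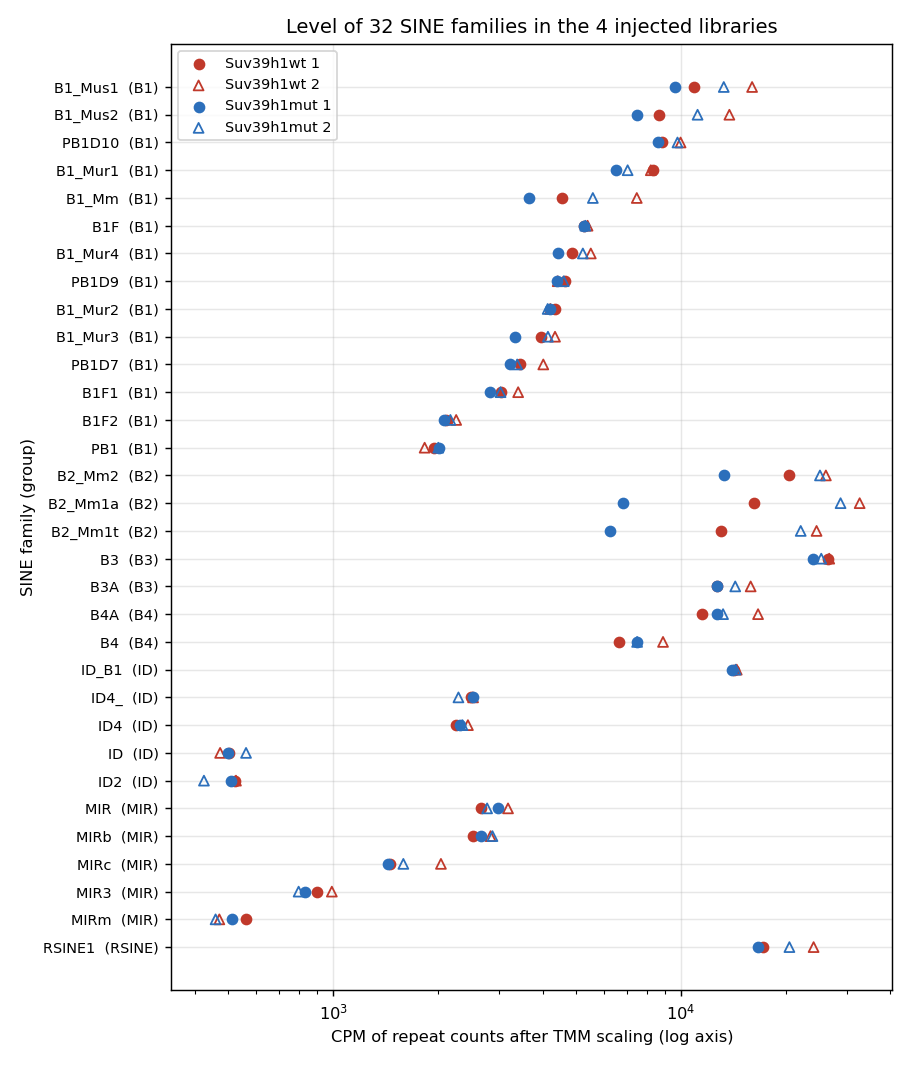
The level of each SINE family (y axis, with its group in brackets) is given as CPM of repeat counts after TMM scaling on a log axis (x axis). Points are single libraries, red for Suv39h1wt and blue for Suv39h1mut, filled circles for number 1 and open triangles for number 2; the 3 B2 families and the B1_Mus and B1_Mm families spread by library number, while B1F, ID_B1 and PB1D9 lie close together.

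B4 elements summed to 18134 and 25529 CPM in Suv39h1wt and 20153 and 20687 CPM in Suv39h1mut. The Suv39h1mut values lay between the Suv39h1wt values, with a log2 ratio of 0.10 (p = 1, exact permutation test) that was -0.20 with library totals only. B4A was at 11510 and 16653 CPM against 12693 and 13209 CPM (log2 fold change 0.12 ± 0.28), and B4 at 6624 and 8876 CPM against 7459 and 7478 CPM (0.05 ± 0.24). RSINE1 was at 17252 and 24053 CPM against 16681 and 20495 CPM (0.15 ± 0.31), with overlapping groups. With library totals only these values were -0.17, -0.24 and -0.11.

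Under TMM, ID elements were the steadiest group, with sums of 19926 and 20422 CPM in Suv39h1wt and 19819 and 19985 CPM in Suv39h1mut. Their share of SINE counts, which does not depend on scaling, varied more. It was 8.78% and 6.90% in Suv39h1wt and 10.1% and 7.51% in Suv39h1mut. The log2 ratio of the sums was 0.02 under TMM (p = 0.667, exact permutation test), and -0.23 with library totals only. ID_B1, which joins ID and B1 sequence, held most of these counts, with 14156 and 14459 CPM against 13974 and 14354 CPM (log2 fold change 0.01 ± 0.26). ID4 was at 2252 and 2440 CPM against 2317 and 2353 CPM (0.01 ± 0.19), and ID4_ at 2495 and 2524 CPM against 2520 and 2291 CPM (0.06 ± 0.19). The least read members had values on either side of 0. ID had 502 and 473 CPM against 499.5 and 562 CPM (-0.12 ± 0.22), and ID2 had 521 and 525 CPM against 509 and 425 CPM (0.16 ± 0.23). With library totals only ID_B1, ID4, ID4_ and ID2 were at -0.23, -0.25, -0.20 and -0.11. In the authors' deposited table ID had the smallest p of all SINE families, with a log2 fold change of -0.46 and an adjusted p of 0.158.

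MIR elements took 3.57% and 3.21% of SINE counts in Suv39h1wt and 4.31% and 3.19% in Suv39h1mut. Their sum was 8097 and 9518 CPM against 8419 and 8486 CPM, a log2 ratio of 0.06 (p = 1, exact permutation test) that was -0.21 with library totals only. MIR was at 2652 and 3182 CPM against 2979 and 2770 CPM (log2 fold change 0.02 ± 0.20), and MIRb at 2528 and 2834 CPM against 2658 and 2870 CPM (-0.04 ± 0.19). MIRc had 1460 and 2041 CPM against 1441 and 1591 CPM (0.21 ± 0.22) and MIRm 559.9 and 471 CPM against 512 and 459 CPM (0.09 ± 0.23). With library totals only MIR, MIRc and MIRm were at -0.26, -0.07 and -0.15. MIR3 was the one member with groups that did not overlap under TMM, at 897 and 991 CPM against 829.7 and 795 CPM (0.22 ± 0.19), and with the authors' size factors its value was -0.19.

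Counted over all members under TMM, both Suv39h1wt libraries lay above both Suv39h1mut libraries in 7 of 32 families, beside 168 of 1082 families in all (15.5%). They lay below in 1 of 32, PB1, beside 149 of 1082 (13.8%). These shares use the scaling whose change turns most signs.

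For 29 of 32 members under TMM the larger gap between the 2 libraries of a group exceeded the difference between the group means. The same count was not made over all families, so it does not set SINEs apart from other repeats. Under TMM, number 2 was above number 1 in both groups in 22 of 32 families, beside 313 of 1082 families (28.9%), and below in both in 3, beside 342 of 1082 (31.6%). With library totals only this was turned around, with number 2 below number 1 in both groups in 27 of 32 families, beside 725 of 1082 (67%), and above in both in 2, beside 83 of 1082 (7.67%). With library totals without ribosomal RNA entries it was below in 20, beside 571 of 1082 (52.8%), and above in 6, beside 161 (14.9%). With the authors' size factors it was below in 27, beside 716 of 1082 (66.2%), and above in 3, beside 91 (8.41%). Under TMM the log2 ratio of number 2 to number 1 was 1.01 in Suv39h1wt and 2.07 in Suv39h1mut for B2_Mm1a and 0.71 and 0.61 for B1_Mm, against 0.03 and 0.01 for B1F and 0.03 and 0.04 for ID_B1. What a library number stands for is not given in the labels. The share of ribosomal RNA entries given above moves with the same numbers, and its part in these values was not tested.

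**Figure D4:**
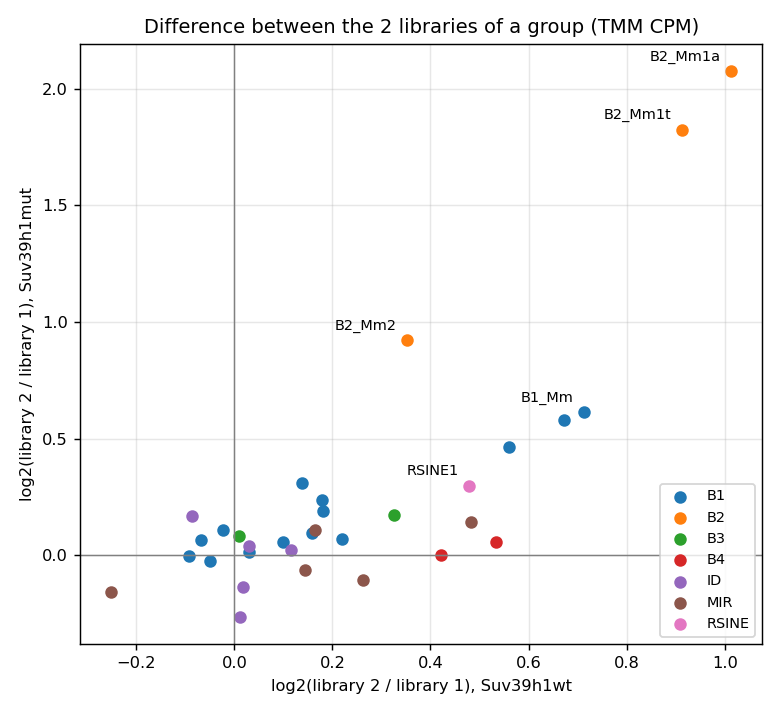
For each SINE family the log2 ratio of TMM CPM in library 2 over library 1 is plotted for Suv39h1wt (x axis) against Suv39h1mut (y axis), coloured by SINE group. The 3 B2 families lie highest on the y axis, with B2_Mm1a at 1.01 and 2.07, followed by B1_Mm at 0.71 and 0.61, while ID_B1 lies near 0 at 0.03 and 0.04. With library totals in place of TMM, 27 of the 32 families would lie below 0 on both axes.

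Other entries of related origin overlapped between the groups. The BC1_Mm entry was at 678.9 and 567.5 CPM in Suv39h1wt and 569.8 and 557.2 CPM in Suv39h1mut (log2 fold change 0.15 ± 0.22), and the entry for 4.5SRNA, a small RNA related to B1, at 68.0 and 45.8 CPM against 67.2 and 42.4 CPM (0.05 ± 0.52). The 7SLRNA entry was at 47.1 and 238.0 CPM against 44.3 and 160.7 CPM (0.48 ± 0.83). Each of these entries had an adjusted p of 0.993 in edgeR.

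Genes of the machinery that makes or binds SINE RNA were read from the gene table, in CPM of gene counts. Of 35 listed genes 34 were tested, and 0 passed in edgeR at an adjusted p of 0.05, beside 0 of 17638 genes (0%); 0 had an unadjusted p under 0.05, beside 480 of all genes (2.72%), and DESeq2 called 0. With the replicate number as a block Bdp1, Gtf3c5 and Polr3e had an unadjusted p under 0.05 in edgeR. The share of all genes under 0.05 was not counted in that fit, so this does not set these genes apart. The median log2 fold change was -0.30 for 11 RNA polymerase III subunits (4 above 0, 7 below) and 0.13 for 12 genes of TFIIIB, TFIIIC, the repressor Maf1 and the RNA-binding protein La (7 above, 5 below). It was 0.37 for 7 tested genes of the signal recognition particle (5 above, 2 below) and 0.52 for the 4 genes of ChAHP, a complex known to repress SINE B2 copies in mouse embryonic stem cells (3 above, 1 below), beside -0.01 over all genes tested.

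Polr3gl, a variant subunit of RNA polymerase III, was at 0.96 and 9.22 CPM in Suv39h1wt, 1.74 and 0.74 CPM in Suv39h1mut and 0.92 and 3.31 CPM in non-injected embryos (log2 fold change of Suv39h1wt over Suv39h1mut 2.03 ± 1.47). Polr3e, another subunit, was at 32.1 and 36.9, 11.4 and 28.1, and 50.9 and 105.0 CPM in the same order of groups (0.80 ± 0.60). Gtf3c5, a TFIIIC subunit, was at 53.8 and 87.8, 19.8 and 51.4, and 64.1 and 102.1 CPM (0.99 ± 0.58). For Polr3e and Gtf3c5 the injected groups did not overlap, while the highest non-injected value was above every injected library. Bdp1, a TFIIIB subunit, was at 85.3 and 44.3, 117.5 and 91.3, and 153.0 and 79.2 CPM (-0.69 ± 0.53). The signal recognition particle genes with the smallest p were Srp54b at 1.75 ± 1.41 CPM against 0.41 ± 0.28 CPM and Srp72 at 48.6 ± 20.0 against 74.8 ± 29.5 CPM (SD, n = 2). The ChAHP genes were Cbx3, which encodes HP1 gamma, at 18.3 and 47.5 CPM against 12.2 and 20.2 CPM (1.02 ± 0.68), and the remodeller Chd4 at 107.2 ± 50.5 against 77.9 ± 51.4 CPM (SD, n = 2). Their adjusted p was 1 in edgeR.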

How the data were processed

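The submitters' processing notes name CASAVA 1.8.2, TopHat2 2.0.14, Bowtie, HTSeq 0.6.1 and the mm9 build; per the labels, amplified cDNA came from random and poly-T priming. How reads were assigned to repeat families and the strand setting are not given in the sources used here. The deposited tables hold raw counts of 1183 repeat families and 26982 genes. The signal values, the authors' normalized counts, were each a raw count divided by a constant for its library, which gave the authors' size factors. Log2 fold changes with their p-values were also deposited and are quoted only where named.

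Raw counts were tested with R 4.3.3 and edgeR 4.0.16 (robust quasi-likelihood F test, TMM, filterByExpr with minimum count 10, group as the only factor, Benjamini-Hochberg over all features), on 4 libraries for repeats (1082 families) and 6 for genes (17638). CPM is the count over the TMM-scaled library size; SE is the log2 fold change over the square root of F. Summed levels were compared by exact permutation, and DESeq2 1.42.0 was an alternative. Named families are every member of groups of at most 5, and of B1 the 3 most read and the smallest p in each direction; other B1 families, BC1_Mm and 4.5SRNA are named in addition, as are per gene list the 2 smallest p. B1_Mm and B1F were chosen after their values were seen. Members and lists were chosen with earlier results of these data known. Scaling by the authors' factors and by totals without ribosomal RNA entries was added after the data were seen, as were the comparison of library numbers under scalings other than TMM and the fits without a library for the 9 B1 families outside the rule.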

Additional observations from a re-analysis of the deposited data

How the results depend on the processing

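Across all 14 alternatives 0 SINE families and across 12 alternatives 0 SINE-related genes passed an adjusted p of 0.05, while the sign of the summed levels turned with the scaling; the cause was not tested. The log2 ratios of the summed levels that turned were, with library totals only, -0.085 for B1, -0.14 for B3, -0.20 for B4, -0.23 for ID, -0.21 for MIR and -0.11 for RSINE. With the effective sizes of the gene table they were -0.055, -0.12, -0.14, -0.21, -0.18 and -0.06 for the same groups, with the authors' size factors -0.23, -0.28, -0.33, -0.36, -0.35 and -0.25, and with library totals without ribosomal RNA entries -0.033, -0.094, -0.12, -0.18, -0.15 and -0.046. With upper-quartile scaling B3 was at -0.029, B4 at -0.038, ID at -0.11 and MIR at -0.071, and with median-ratio scaling ID was at -0.0016. Relative to the median of all families, B4 turned to -0.039 with library totals, -0.041 with the authors' factors, -0.0053 without ribosomal RNA entries and -0.00093 with upper-quartile scaling. ID4_ turned to -0.0051 with library totals and -0.0044 with the authors' factors, and PB1D10 to 0.0099 with the gene table's sizes.

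Leaving out each library in turn, the log2 ratio of the summed level ran from 0.011 to 0.30 for B1, -0.22 to 1.34 for B2, 0.021 to 0.16 for B3, -0.17 to 0.27 for B4, -0.017 to 0.028 for ID, -0.061 to 0.12 for MIR and -0.11 to 0.32 for RSINE. Relative to the median of all families, 19 of the 23 families named by rule turned sign in at least 1 of these fits and ran from -0.077 to 0.50 for B1_Mus1, -0.11 to 0.58 for B1_Mus2, -0.15 to 0.14 for PB1D10, -0.19 to 0.052 for MIRb, -0.10 to 0.046 for ID_B1, -0.10 to 0.079 for ID4, -0.12 to 0.16 for MIR, -0.17 to 0.27 for B4, -0.066 to 0.085 for ID4_. The others of them ran from -0.10 to 0.25 for B3A, -0.17 to 0.38 for B4A, -0.019 to 0.13 for B3, -0.050 to 0.21 for MIRm, -0.11 to 0.39 for RSINE1, -0.34 to 1.78 for B2_Mm1a, -0.022 to 0.21 for ID2, -0.055 to 0.45 for MIRc, -0.33 to 1.53 for B2_Mm1t and -0.20 to 0.75 for B2_Mm2. The sign held in all 4 of these fits for B1_Mur1, PB1, ID and MIR3. Of the 9 other B1 families 8 turned, among them B1_Mm with -0.021 to 0.71, and PB1D7 did not.

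With the replicate number as a block, 0 SINE families were called, and 4 of all families, beside 0 without it. The smallest adjusted p of a SINE family in edgeR was then 0.567. B1_Mm, B2_Mm1a and B2_Mm1t, 3 of 32 SINE families, had an unadjusted p under 0.05, beside 72 of 1082 families in all (6.65%). All 3 had higher values in Suv39h1wt, while PB1D10 turned to 0.0101 relative to the median of all families. Deviations of same-numbered libraries had a correlation of 0.218, from 1 pair of groups, and the numbers share no stated source, so the pairing was not used.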
